A study of Rattus norvegicus with 160 samples.

Results

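Transcript levels in the adult hippocampus were compared between male Sprague-Dawley rats of a pair of selectively bred lines, named HR and LR. The comparison rests on 10 of the 160 arrays of the study, chosen by their sample titles: 5 adult hippocampal arrays of HR rats and 5 of LR rats, all sampled at P75 and each rat raised by its own mother. These lines are known as high and low responders, bred for much or little locomotion in an unfamiliar place. Line and rearing dam therefore changed together here, since HR rats had HR mothers and LR rats had LR mothers, and the contributions of birth line and mother to HR minus LR cannot be told apart. A further 10 adult hippocampal arrays entered the fit: 5 of LR-born rats fostered to another LR dam (LR-LR) and 5 of LR-born rats fostered to an HR dam (LR-HR). HR-born rats raised by an LR dam were not analysed here. Tissue was dissected from frozen brain sections of 300 µm, so cell types are mixed, and fewer cells of a type cannot be told apart from less RNA per cell. No label names the litter of a rat, so the p-values reflect the spread among these 5 arrays per group, which may be partly technical or shared within litters.

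The hippocampus is a folded sheet of glutamatergic principal neurons, the granule cells of the dentate gyrus and the pyramidal cells of Ammon's horn, with GABAergic interneurons, astrocytes, oligodendrocytes and microglia around them. It takes part in spatial memory, in responses to novelty and in feedback control of stress hormones. Markers of hippocampal principal neurons were measured for 18 of 30 listed genes, of which 1 had a mean at or below that of the random control sequence on the arrays. Their mean log2 intensity per array was 8.79 to 9.0 in LR and 8.75 to 9.17 in HR, so the groups overlapped. Camk2a, a kinase abundant in excitatory synapses, was 12.43 ± 0.34 (SD, n = 5) in LR and 12.52 ± 0.10 in HR. Nrgn, a calmodulin-binding protein of principal neurons, was 14.24 ± 0.35 and 14.11 ± 0.55. Levels throughout are log2 of the deposited array intensity, given per group as mean ± SD over 5 arrays, and changes are HR minus LR ± SE from limma.

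Few transcripts were called between the lines. Of 25897 transcripts, 13 (0.0502%) passed an adjusted p of 0.05 with limma, 7 higher in HR (0.027%) and 6 lower (0.0232%). Of these 13, 7 matched a gene symbol. Ifi27 was lower in HR, and Pdyn, Gfap, Lrrn1 and Serinc1 were higher. HR and LR arrays did not overlap for any of the 13, against 368 of all transcripts (1.42%). The calls and the overlap rest on the same arrays, so the lack of overlap is not separate support. The changes of the 13 ran from 0.95 to 1.93 in size on the log2 scale, while the median change of all transcripts was -0.03 and their SD 0.31. The count rested on the arrays used: it was 7, 6 and 3 without HR replicates 1, 3 and 4, and 4 and 7 without LR replicates 2 and 5. With only the HR and LR arrays in the fit, Ifi27 was the 1 transcript called, and with all 80 hippocampal arrays 4 were called, among the 7 with a symbol Ifi27 alone. Some other settings gave more calls. The count was 20 with trend and robust variance, 21 after quantile normalization and 53 with replicate number as a block.

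Ifi27 is an interferon-induced gene for a small hydrophobic protein, and the stretch before its start site is shown because interferon acts on such genes through the interferon-stimulated response element. The 250 bases before the RefSeq start (assembly GRCr8, chr6:128355062-128355311, plus strand) read 5′ to 3′ as follows, with matches to the core of that element (GAAA, 2 bases of any kind, then GAAA) in capitals.
Ifi27: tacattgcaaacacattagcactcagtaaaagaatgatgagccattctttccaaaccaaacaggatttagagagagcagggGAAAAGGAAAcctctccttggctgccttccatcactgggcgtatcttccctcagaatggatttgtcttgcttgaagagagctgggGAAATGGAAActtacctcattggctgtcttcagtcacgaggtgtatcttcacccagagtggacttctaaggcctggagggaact
The matches begin 169 and 84 bases before the start. The same letters on either strand occurred in 1140 of 33469 RefSeq rat promoters of this length (3.41%), and a match is a description of letters, not a site in use. Promoters of Pdyn, Gfap, Lrrn1 and Serinc1 held no match to it, nor to the cyclic AMP element TGACGTCA (1.59% of promoters), the AP-1 motif TGANTCA (6.34%) or the STAT motif TTCNNNGAA (7.67%). The letters TATAAA (12.9% of promoters) began 13 bases before the start of Pdyn and were absent from the other 4 windows. None of these motifs overlapped another in these windows, and nothing about a factor follows from a motif that was not found.

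Ifi27 showed the firmest difference. The 5 LR arrays read 11.42, 11.22, 11.60, 11.37 and 11.11, and the 5 HR arrays read 9.35, 9.21, 9.61, 9.58 and 9.31. Every HR array was thus below every LR array by more than the whole spread within either line. The change was -1.93 ± 0.18 (limma, adjusted p = 3.48e-06), a level 3.82-fold lower in HR, and it was called without any single replicate and under all 12 other alternatives. The means of LR-LR and LR-HR rats lay near that of LR, at 11.09 ± 0.20 and 11.27 ± 0.18, and HR was lower than each of them too, with changes of -1.68 ± 0.18 (adjusted p = 2.53e-05, limma) and -1.86 ± 0.18 (adjusted p = 7.47e-06). These comparisons share the HR arrays and stand side by side only. Its paralogue Ifi27l2b was 7.41 ± 0.34 in LR and 6.87 ± 0.54 in HR, a change of -0.54 ± 0.25 that did not pass (limma, adjusted p = 0.688), and cross-hybridisation between the paralogues was not tested.

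No other listed interferon gene was called. Of 20 listed interferon response genes 17 were measured and none was called by limma, with 1 lower at an unadjusted p under 0.05 and none higher, against 1793 of all transcripts (6.92%), of which 755 (2.92%) were higher and 1038 (4.01%) lower. That gene was Irf9, a partner of STAT proteins in interferon signalling, at 7.30 ± 0.35 in LR and 6.74 ± 0.08 in HR. Mx1, an antiviral GTPase, read 5.80 ± 0.28 and 6.12 ± 0.27. The median change of the list was -0.02. Its mean level per array was 6.25 to 6.41 in LR and 6.25 to 6.45 in HR. The random control sequence had a log2 mean of 5.82, so a fall in such weak signals could be missed. Of 22 genes of MHC and antigen presentation none was called and none passed an unadjusted p under 0.05, with a median change of 0.03.

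Pdyn encodes prodynorphin, the precursor of the dynorphins, opioid peptides that act at the kappa receptor and are stored by dentate granule cells. It read 7.47, 7.99, 8.01, 7.47 and 7.87 on the LR arrays and 8.70, 9.17, 8.83, 9.29 and 9.50 on the HR arrays, a gap with no overlap. The change was 1.33 ± 0.21 (limma, adjusted p = 0.0124), a level 2.52-fold higher in HR, and without HR replicate 4 the adjusted p was 0.0519. Mean Pdyn levels varied among the LR-born groups. LR-LR rats stood between the lines at 8.51 ± 0.31, and LR-HR rats at 9.40 ± 0.23 lay nearer to HR. LR-HR exceeded LR by 1.64 (limma, adjusted p = 0.00174), a comparison in which fostering and foster dam changed together. Between the fostered groups, LR-HR minus LR-LR was 0.89 and not called (limma, adjusted p = 0.287). Nor was LR-LR minus LR, at 0.75 (limma, adjusted p = 0.511). HR minus LR-HR was -0.31 ± 0.21. Against the mean of the 3 LR-born groups, the HR change in Pdyn was 0.54 and not called (adjusted p = 0.543).

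No other gene of the opioid system examined was called. The kappa opioid receptor gene Oprk1 was 6.43 ± 0.54 in LR and 6.63 ± 0.85 in HR, and the enkephalin precursor Penk was 10.69 ± 1.41 and 10.18 ± 0.97, neither of them called. Among 38 measured neuropeptides and receptors, Pdyn was the 1 called member, and 11 had a higher and 27 a lower mean in HR, with a median change of -0.18. Npy, Sst and the somatostatin receptor gene Sstr4 were the 3 lower at an unadjusted p under 0.05. Sst, which marks a class of dendrite-targeting interneurons, was 10.58 ± 0.13 in LR and 9.98 ± 0.57 in HR, and its arrays overlapped.

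Gfap encodes the intermediate filament of astrocytes. It read 10.26, 10.39, 10.91, 11.00 and 10.44 in LR and 11.74, 11.66, 11.82, 11.95 and 11.82 in HR. HR arrays lay within a narrow band above all LR arrays, and the change was 1.20 ± 0.19 (limma, adjusted p = 0.0134), a level 2.29-fold higher. LR-LR at 11.38 ± 0.16 and LR-HR at 11.24 ± 0.28 fell between the lines, and HR minus LR-LR was 0.41 ± 0.19 (adjusted p = 0.754, limma). The call was lost without HR replicate 4 (adjusted p = 0.0519) and without LR replicate 2 (adjusted p = 0.0581). Vim, another filament gene of reactive astrocytes, was 9.56 ± 0.44 in LR and 9.78 ± 0.27 in HR.

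Of 15 measured astrocyte genes Gfap was the 1 called, and 4 including Gfap were higher in HR at an unadjusted p under 0.05 while none was lower, each gene being counted by 1 transcript. Aldoc, a glycolytic aldolase of astrocytes, was 12.90 ± 0.26 in LR and 13.53 ± 0.19 in HR. Clu, a secreted chaperone, was 12.83 ± 0.20 and 13.30 ± 0.15. Slc1a2, the main astrocytic glutamate transporter, had 2 transcripts with a lower mean in HR. The transcript that stands for it in the list was 11.39 ± 0.48 in LR and 10.84 ± 0.58 in HR. The other, which is not counted in the list, had means of 10.96 and 10.24, a change of -0.72 ± 0.22 (limma, unadjusted p = 0.00353, adjusted p = 0.371). The list had a median change of 0.22, and its mean level per array ran from 10.64 to 11.36 in LR and from 10.94 to 11.54 in HR, so the summed levels overlapped.

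Lrrn1, a neuronal membrane protein with leucine-rich repeats, read 7.85, 7.84, 7.80, 7.66 and 7.82 in LR and 8.68, 8.56, 9.24, 9.20 and 9.25 in HR. LR arrays were nearly alike, while HR arrays were more spread and all higher. The change was 1.19 ± 0.20 (limma, adjusted p = 0.0145), and adjusted p-values were 0.0645, 0.0531 and 0.0576 without HR replicate 3, HR replicate 4 and LR replicate 2. LR-LR at 8.26 ± 0.17 and LR-HR at 8.71 ± 0.30 lay between. Serinc1, a membrane protein of the serine incorporator family, read 10.18, 10.23, 10.32, 10.40 and 10.51 in LR and 11.20, 11.12, 11.66, 11.20 and 11.20 in HR. Its change of 0.95 ± 0.17 (limma, adjusted p = 0.0344) was not called in any of the 10 fits that left out a replicate, where the adjusted p ran from 0.0514 to 0.136. The family members Serinc2 and Serinc3 changed by 0.13 ± 0.29 and 0.17 ± 0.24, and Serinc5 by -0.55 ± 0.25 (limma, adjusted p = 0.679), none of them called.

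**Figure D1:**
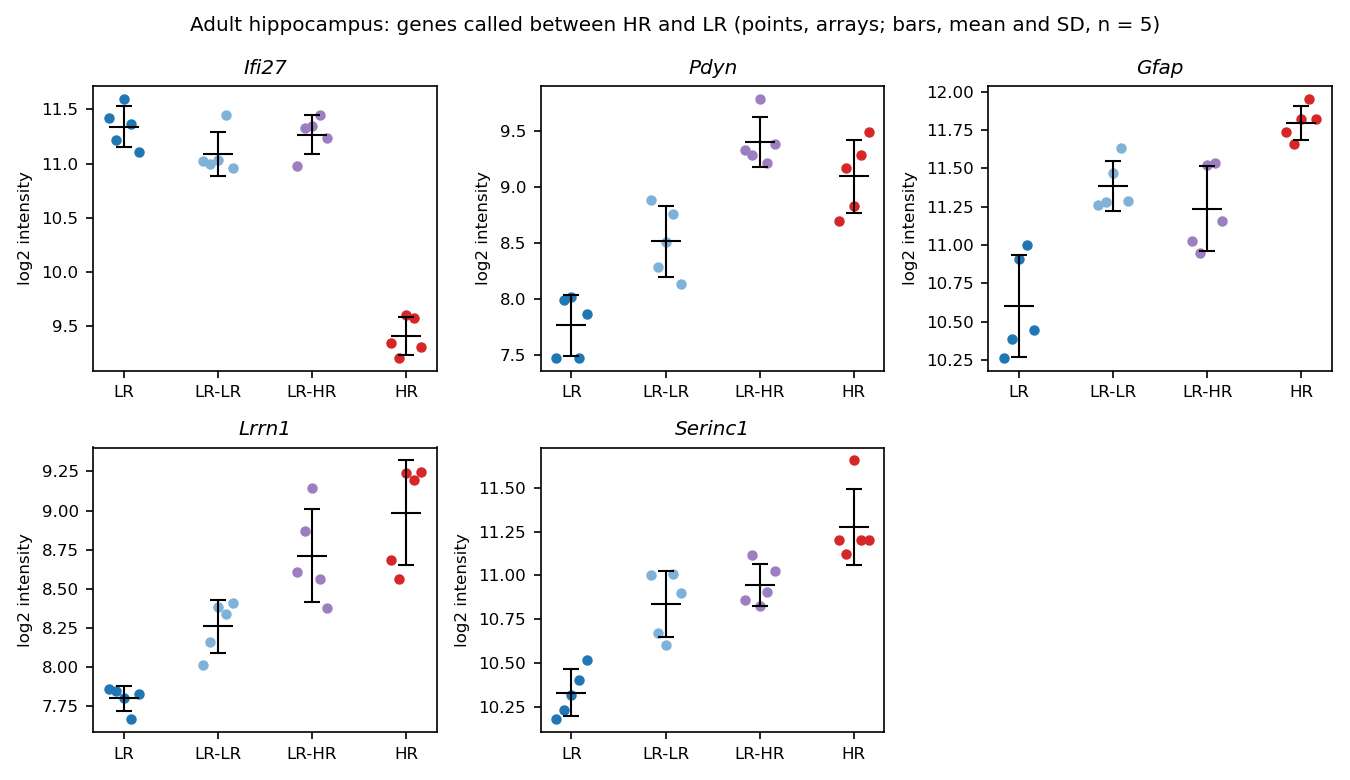
Log2 intensity (vertical axes, a separate range in each panel) of named genes called between HR and LR in the adult hippocampus, by rearing group; points are arrays and bars the mean and SD of 5 arrays. HR stands apart from all 3 LR-born groups for Ifi27, while the LR-HR mean for Pdyn is above that of HR.

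Of the 13 transcripts, 6 had no symbol in the gene table. XM_576238 was 10.50 ± 0.35 in LR and 9.06 ± 0.12 in HR, a change of -1.44 ± 0.22 (limma, adjusted p = 0.0124). XM_001067440 was 8.64 ± 0.35 and 10.04 ± 0.20, a change of 1.39 ± 0.22 (limma, adjusted p = 0.0124, and 0.0519 without HR replicate 4).

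The fostered groups show how far the LR-born level varied. HR minus LR-LR gave 12 calls (0.0463%), of which 1 was higher in HR, and HR minus LR-HR gave 3 (0.0116%). Of the 13 transcripts 4 were called against LR-LR and 2 against LR-HR, and 13 and 11 kept the direction. Ifi27 was called in both. LR-LR minus LR gave no call with limma (0%), with 1626 transcripts at an unadjusted p under 0.05, and LR-HR minus LR gave 3 (0.0116%), among them Pdyn. Calls against LR-LR that were not called against LR included Nrn1, a membrane protein that promotes neurite growth, with a change of -1.83 ± 0.28 (limma, adjusted p = 0.00461), and Cadm4, an adhesion molecule, with a change of -1.77 ± 0.30 (limma, adjusted p = 0.0146). Slc1a2 was also among them, with a change of -1.33 ± 0.22 in the transcript not counted in the astrocyte list (limma, adjusted p = 0.0113). For 10 of the 13, LR-LR rats had a mean between those of LR and HR, and for 10 LR-HR rats did. The 13 were chosen by their gap between LR and HR, and the same HR arrays enter each comparison. This favours kept directions and means in between. Shares over all transcripts were not counted, so these counts are a description only.

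Below the threshold, the genes with the next smallest p-values were spread over several functions, and none passed adjustment in the fit of group means. Cadm4 was 8.28 ± 0.45 in LR and 6.74 ± 0.18 in HR (limma, adjusted p = 0.0621). Ncdn, a neuronal cytoplasmic protein, was 11.45 ± 0.20 and 12.42 ± 0.29, and Olfm1, a secreted neuronal glycoprotein, was 11.17 ± 0.22 and 12.11 ± 0.24 (limma, adjusted p = 0.0644 for each). Kcnk1, a leak channel subunit, was 7.88 ± 0.32 and 8.96 ± 0.21 (limma, adjusted p = 0.0989). Maob, which degrades monoamines, was 7.75 ± 0.21 in LR and 8.68 ± 0.27 in HR, and Htr1b, a serotonin receptor of axon terminals, was 7.04 ± 0.27 and 6.06 ± 0.17 (limma, adjusted p = 0.179 for each). Changes of the other genes with a positive value were 1.13 for Aldh3b1, 0.95 for Dgkz, 0.92 for Cap1 and 0.78 for Fam107a. Those with a negative value were -1.45 for Dcaf8, -1.26 for Srebf2, -1.10 for Myh6, -1.08 for Tead3, -1.07 for Cacng7, -1.05 for Fam131b and -0.96 for Bace2, and adjusted p-values of all of these were 0.106 or more.

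**Figure D2:**
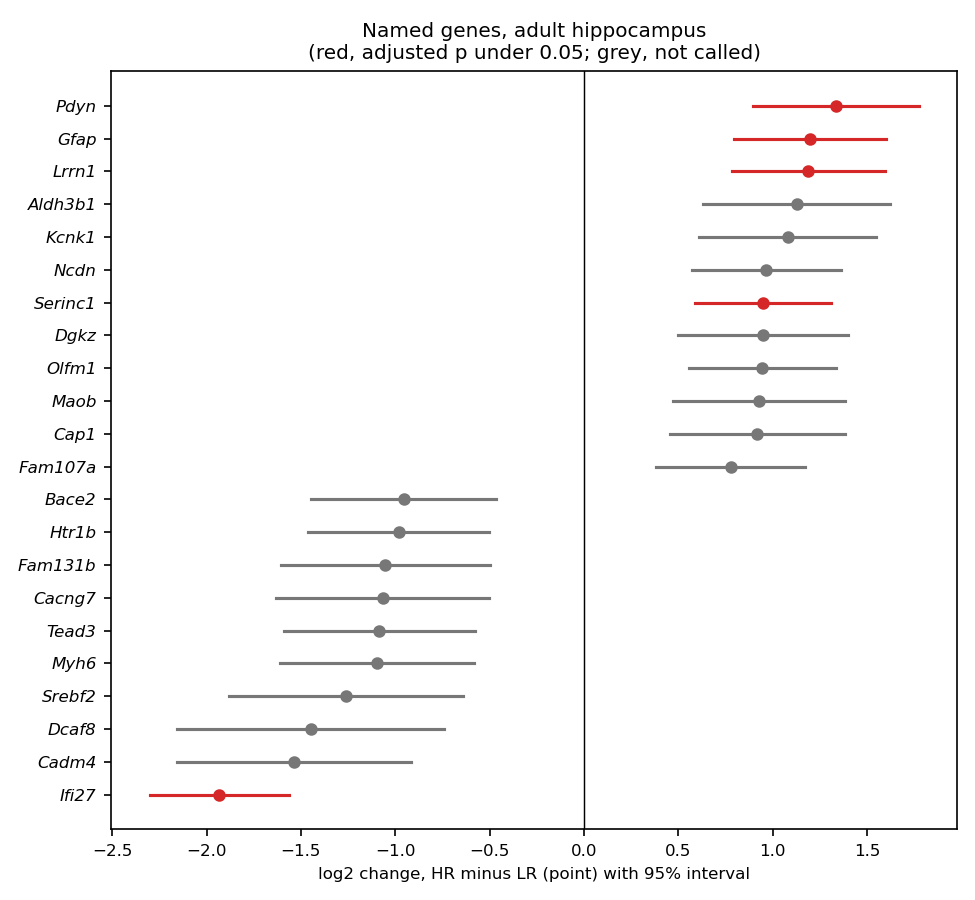
Change in log2 intensity, HR minus LR (horizontal axis), with its 95% interval for the genes named by size and p-value. Red points, adjusted p under 0.05 with limma, are Pdyn, Gfap, Lrrn1, Serinc1 and Ifi27; grey points did not pass.

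Genes long studied in these lines and in stress biology were not called. The glucocorticoid receptor Nr3c1 was 6.28 ± 0.34 in LR and 6.34 ± 0.49 in HR, a change of 0.07 with a 95% interval from -0.46 to 0.59. This signal was weak, near the random control sequence at a log2 mean of 5.82, so a difference could be missed. The mineralocorticoid receptor Nr3c2 was 7.01 ± 0.36 and 6.94 ± 0.24 (interval -0.58 to 0.45), and the neurotrophin Bdnf 9.04 ± 0.31 and 9.03 ± 0.35 (interval -0.49 to 0.47). The growth factor Fgf2 was 8.80 ± 1.07 and 8.53 ± 0.95, with an interval from -1.34 to 0.80 that leaves a change of either direction possible. Fgfr1, a receptor for it, was 9.41 ± 0.34 and 9.81 ± 0.16. Bmp4, a secreted differentiation signal, was 7.22 ± 0.38 and 6.91 ± 0.39. None of these was called.

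The complement genes C1qa, C1qb and C1qc, made by microglia, changed by -0.09 ± 0.25, -0.40 ± 0.23 and -0.24 ± 0.20, and none was called. Ucp2, a mitochondrial carrier, was 10.45 ± 0.33 in LR and 11.06 ± 0.26 in HR (limma, adjusted p = 0.476). The serotonin receptor gene Htr1a was 7.76 ± 0.52 and 8.36 ± 0.48, with LR-LR at 8.42 ± 0.39 and LR-HR at 8.70 ± 0.23. Trhr and Crhr1, receptors for the releasing hormones of the thyroid and adrenal axes, changed by 0.41 ± 0.24 and -0.58 ± 0.33. Trhr was 5.69 ± 0.51 in LR and 6.10 ± 0.33 in HR, near the random control sequence at a log2 mean of 5.82. Mki67, Sox9 and Tek were not analysed here.

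Across 39 gene lists with 668 measured genes, 3 genes were called, Gfap and Pdyn among them. At an unadjusted p under 0.05 stood 76 (11.4%) of them, against 6.92% of all transcripts. These shares are not like for like, since each list gene stands by its transcript with the highest mean. In a fit of the 12948 transcripts above the median of all means, 1121 had such a p. The lists were also chosen with earlier results of these data known, so the shares are a description only. Median changes of the lists ran from -0.30 for DNA methylation and histone modifiers to 0.22 for astrocytes. Among 11 interneuron genes 1 was higher and 3 lower at an unadjusted p under 0.05, with a median change of -0.26. Pvalb, the calcium buffer of fast-spiking interneurons, was 9.37 ± 0.04 in LR and 8.66 ± 0.20 in HR without overlap, and it did not pass adjustment (limma, adjusted p = 0.288). Npy was 11.48 ± 0.09 and 11.01 ± 0.31. Reln, a secreted matrix protein of interneurons, was 8.06 ± 0.39 and 8.55 ± 0.36.

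Synaptic and signalling lists held values on both sides. Of 31 glutamate receptor and scaffold genes 2 were higher and 6 lower at an unadjusted p under 0.05, with a median change of 0.06. Shank1, a scaffold of the postsynaptic density, was 9.34 ± 0.27 in LR and 8.52 ± 0.47 in HR, and Grik2, a kainate receptor subunit, 8.02 ± 0.66 and 7.12 ± 0.33. Grin2a, an NMDA receptor subunit, was 9.20 ± 0.21 and 9.72 ± 0.27. Of 12 genes of the IGF system none was higher and 3 were lower at that p, all of them binding proteins: Igfbp5 changed by -0.85 ± 0.30, Igfbp6 by -0.84 ± 0.31 and Igfbp4 by -0.60 ± 0.27. Of 15 glucocorticoid receptor and response genes, Fkbp5, a chaperone of the receptor, changed by 0.55 ± 0.25 and Zbtb16, a zinc finger protein, by -0.64 ± 0.21. Of 33 redox and detoxification genes 4 were higher at an unadjusted p under 0.05 and none lower, namely Prdx6, Selenop, Ucp2 and Hmox1, with changes of 0.60, 0.69, 0.62 and 0.61. None of these values passed adjustment.

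Lists of other cell types held no called gene. Of 16 myelin genes 3 had a higher and 13 a lower mean in HR, with a median change of -0.22 and 1 member in each direction at an unadjusted p under 0.05. Mbp, a core protein of myelin, was 13.50 ± 0.21 in LR and 13.12 ± 0.33 in HR. Of 19 microglial genes none was higher and 1, Tyrobp, was lower at that p, at 7.38 ± 0.27 and 6.97 ± 0.24. The 18 genes of choroid plexus, ependyma and meninges held none, and the choroid plexus marker Ttr was 6.76 ± 0.71 and 6.66 ± 0.37. Of 9 blood cell genes 1 was lower at that p, the globin gene Hba-a3 at 7.12 ± 0.38 and 6.15 ± 0.53. Of 10 striatal genes 1 was higher, Rgs9 at 7.02 ± 0.72 and 7.97 ± 0.93. Of the 13 heat shock and RNA quality genes 1 was higher, the chaperone gene Hspa8, with a change of 0.60 ± 0.18 and no overlap of its arrays. The part of these marker levels in the line calls was not tested.

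Genes recalled from earlier work as differing between the bred lines were measured for 18 of 45, and none was called. Of the 18, 7 had a higher and 11 a lower mean in HR, with a median change of -0.16. At an unadjusted p under 0.05 stood 4 of them, all higher in HR: Apln, Selenop, Ucp2 and Htra1. That list may draw on these same arrays and is not independent evidence.

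**Figure D3:**
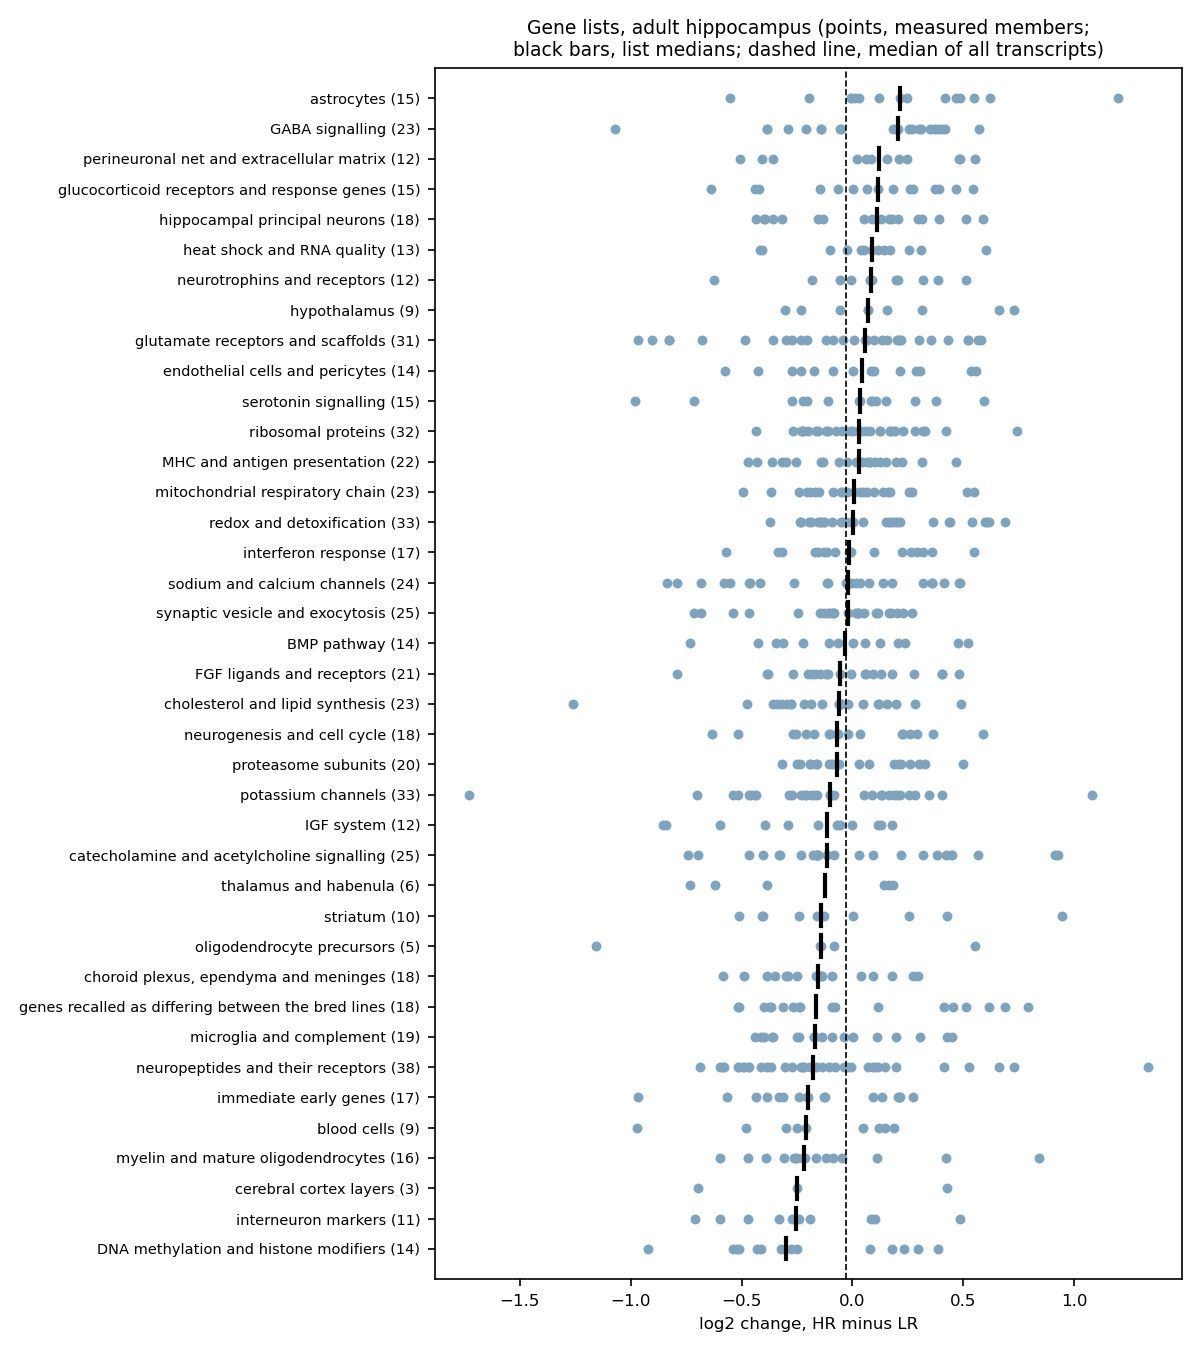
Changes in log2 intensity, HR minus LR (horizontal axis), of the measured members of 39 gene lists, ordered by list median; the number measured is in brackets. Points are genes, black bars are list medians, and the dashed line marks the median of all transcripts at -0.03; lists spread to both sides of it, and the rightmost points of the astrocyte and neuropeptide lists are Gfap and Pdyn.

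Whether the adult difference was already present in pups was asked with other animals of the same lines at P07, P14 and P21, 5 per line and age. Hippocampal line calls numbered 38 at P07 (0.147%), 716 at P14 (2.76%) and none at P21 with limma (0%), where 1763 transcripts had an unadjusted p under 0.05. Of the 13 adult transcripts, 12 had the same direction at P07, of which 1 was called, where 54.8% of all transcripts kept their direction. At P14 it was 6, with none called in that direction and 1 called in the opposite. At P21 it was 9, where 51.1% of all transcripts kept their direction. The 38 transcripts called at P07 had the adult direction in 27 cases (71.1%), against those 54.8%. The 716 transcripts called at P14 had the adult direction in 350 cases (48.9%), against 50.6% of all transcripts.

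Ifi27 levels parted with age. In LR the mean was 9.09 ± 0.27 at P07, 10.25 ± 0.09 at P14, 10.87 ± 0.47 at P21 and 11.34 ± 0.19 in adults. In HR it was 8.93 ± 0.29, 9.98 ± 0.53, 10.40 ± 0.45 and 9.41 ± 0.18. Line differences in pups were -0.16 ± 0.22, -0.27 ± 0.26 and -0.46 ± 0.29, with overlapping arrays and none called. The adult difference minus the mean of the pup differences was -1.63 ± 0.25 (limma over 80 arrays, adjusted p = 0.000184), so for Ifi27 the line difference was larger in adults than in pups.

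In that test of age, 36 transcripts were called (0.139%), 35 of them with a more negative line difference in adults. Those with a symbol were Ifi27, Srebf2 and Slc20a2, and 2 of the 13 were among them, Ifi27 and XM_001054169. The count was 22 and 23 without adult HR replicates 3 and 5, and 20 and 21 without adult LR replicates 2 and 4. Srebf2, the master regulator of cholesterol synthesis, had opposite signs in pups and adults. HR exceeded LR at P07, with means of 8.95 ± 0.45 and 7.22 ± 0.53 (limma, adjusted p = 0.0264), and HR pups also had the higher mean at P14 and P21. In adults the arrays read 8.65, 8.58, 8.92, 8.81 and 8.96 in LR and 7.22, 7.50, 7.20, 7.16 and 8.54 in HR, where replicate 5 stood near the LR arrays. The adult change of -1.26 ± 0.30 was not called (adjusted p = 0.179, limma), and the adult minus pup difference was -2.56 ± 0.50 (adjusted p = 0.00659). Of 23 genes of cholesterol and lipid synthesis none but Srebf2 had an unadjusted p under 0.05 in adults, and the list median was -0.06.

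For Gfap the age test was not passed. HR exceeded LR in mean at every age, by 0.72 ± 0.25 at P07, 0.27 ± 0.21 at P14 and 1.41 ± 0.41 at P21, none of these called, and the adult minus pup difference was 0.40 ± 0.32 (limma, adjusted p = 0.976). Pdyn changed by 0.82 ± 0.29, 0.19 ± 0.25 and -0.51 ± 0.38 at these ages, and its adult minus pup difference was 1.17 ± 0.34 (adjusted p = 0.174, limma). Against each age alone, the adult difference in Pdyn exceeded that at P21 by 1.84 ± 0.41 (limma, adjusted p = 0.0457). Against P07 and P14 it was not called.

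The adult amygdala may have been normalized apart from the hippocampus and is set beside it without a test between regions. In the amygdala 6236 of 22197 transcripts were called between HR and LR (28.1%). Of the 13 hippocampal transcripts 9 had the same direction there, where 52.8% of all transcripts did, and 6 were called in it. The regions may come from the same rats, so this is not an independent repeat. Ifi27 was 11.66 ± 0.33 in LR and 9.94 ± 0.15 in HR, a change of -1.71 ± 0.20 (limma, adjusted p = 4.62e-06) with no overlap. Gfap changed by 0.86 ± 0.20 (limma, adjusted p = 0.00269), Serinc1 by 0.78 ± 0.18 (adjusted p = 0.00208) and Lrrn1 by 0.64 ± 0.21 (adjusted p = 0.0281), each in the hippocampal direction. Pdyn changed by -0.14 ± 0.24 and was not called. Srebf2 was higher in HR there, by 1.08 ± 0.18 (limma, adjusted p = 0.000119).

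**Figure D4:**
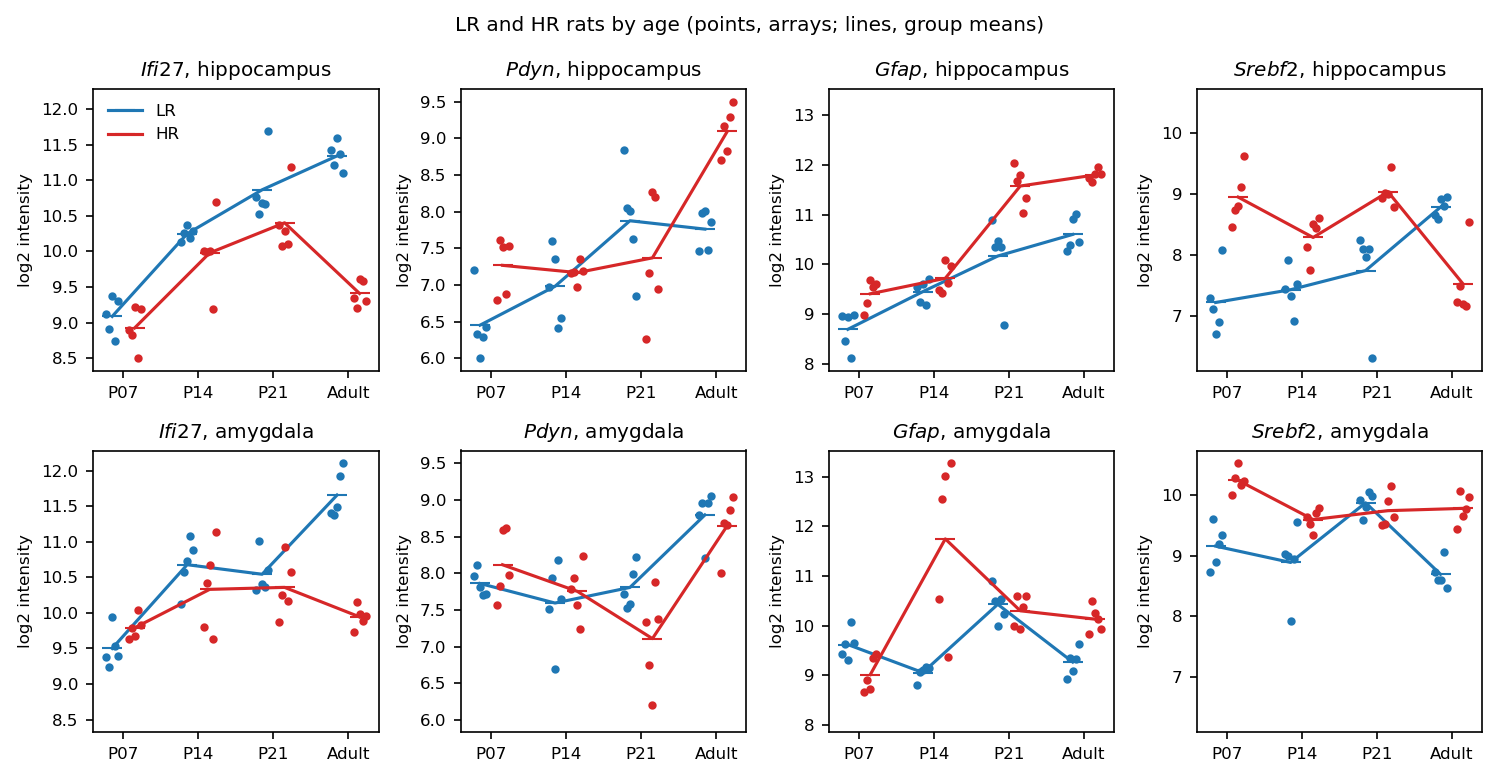
Log2 intensity (vertical axes) of Ifi27, Pdyn, Gfap and Srebf2 in LR (blue) and HR (red) rats at P07, P14, P21 and adulthood. The top row is hippocampus and the bottom row amygdala, which may have been normalized separately. Points are arrays, 5 per group and age from different animals, and lines join group means. Ifi27 in HR adults lies below all LR adults in both regions, and Srebf2 in hippocampus has HR above LR in pup means and below in the adult mean.

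Arrays had similar median signal and varied along an axis that did not separate the lines. Median intensity of the 20 adult arrays ran from 114.04 to 128.3, and the mean of the random control sequence was 56.4 with an SD of 1.83, with 2027 transcripts at or below it. Correlations within groups ran from 0.861 to 0.954 and between HR and LR from 0.837 to 0.952, and no arrays held identical values. The leading component took 30.2% of the variance, with scores from -65.7 to 54.0 in LR and from -47.3 to 60.8 in HR. Its scores ran in part with replicate number. Arrays numbered 1 scored -65.7 in LR, -39.6 in LR-LR, -41.7 in LR-HR and -47.3 in HR. Arrays numbered 5 scored 53.7, 72.1, 75.9 and 60.8 in the same order. The cause was not tested.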

How the data were processed

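Total RNA was labelled with Cy3 and hybridised to 1-colour NimbleGen arrays, per the labels' protocols. The authors deposited linear intensity values made by RMA (background correction, quantile normalization and probe summary), per the submitters' processing notes; its version and settings and any scan batches were not given in the sources used here. Regions may have been normalized separately, since 25897 transcripts had hippocampal and 22197 amygdala values. Log2 was taken here with no pseudocount or filter; the random control row was left out.

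Means of the 4 groups were fitted to the 20 adult hippocampal arrays with limma 3.58.1 in R 4.3.3 (lmFit, eBayes), with Benjamini-Hochberg adjustment over all transcripts and a call at an adjusted p under 0.05; every adjusted p comes from limma. Other ages and the adult amygdala had fits of their own, and a fit of all 80 hippocampal arrays tested adult against pup line differences. The fits were tested on simulated data with independent noise on each array. Dependence between arrays that share a replicate number was not simulated. The number of arrays limits the precision.

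RefSeq (GRCr8) symbols matched 9506 of 25902 identifiers. A list gene with several transcripts was represented by 1 transcript. Named genes were the 12 largest called rises and falls with 1 symbol and non-overlapping arrays above the random control, filled by smallest p, called members of lists, and a panel of 16 genes. Paralogues and partners of called genes were chosen after seeing values. The comparison, the lists and the panel were chosen with earlier results of these data known. Alternatives changed the variance model, samples, comparison group, normalization, filter, pseudocount, replicate block and single replicates. Some called and listed genes are not reported here.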

Additional observations from a re-analysis of the deposited data

Results flagged for a closer look

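In groups of 5 arrays, a highest or lowest array far from the others was marked by Dixon's criterion, which chance meets in about 1 in 20 groups. Many groups were screened, so marks such as these can arise by chance. Serinc1 read 11.66 on HR replicate 3, against 11.20 for the next array. Srebf2 read 8.54 on HR replicate 5, against 7.50 for the next. Cacng7 read 7.52 on LR replicate 2, against 8.0 for the next. Bmp4 read 6.57 on LR replicate 3, against 7.26 for the next.

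Line differences that differed between adults and pups, by the age test over 80 hippocampal arrays with limma, were those of Ifi27 (-1.63 ± 0.25, adjusted p = 0.000184), Srebf2 (-2.56 ± 0.50, adjusted p = 0.00659) and XM_001054169 (-1.46 ± 0.29, adjusted p = 0.00791). Adults and pups were different animals.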

How the results depend on the processing

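All 13 called transcripts kept their direction under every alternative. Against 13 calls (7 higher), limma gave 20 (10 higher) with trend and robust variance, 21 (14 higher) after quantile normalization, 8 (5 higher) with arrays centred on their median, 24 among transcripts above the median mean, 13 above the random control, 19 with a pseudocount of 16, 17 against the 3 LR-born groups (6 of the 13 among them), 4 with all hippocampal arrays and 1 with only HR and LR arrays. The range was 3 to 12 when single replicates were left out. Alternatives added after seeing the data gave 9 without the arrays numbered 5 and 67 with the leading component as a covariate. Centring ended the call of Serinc1 (adjusted p = 0.0546), and the 3 LR-born groups those of Pdyn (0.543), Gfap (0.106), Lrrn1 (0.106) and Serinc1 (0.201). List genes called, 3 as reported, were 0 with only HR and LR arrays, 0 with all hippocampal arrays, 1 against the 3 LR-born groups, 7 with the leading component, and 0 to 3 without single replicates. HR against LR-LR, 12 as reported, gave 20 with trend, 16 after quantile normalization and 8 to 16 without single replicates. The age test, 36 as reported, gave 24 with trend, 17 after quantile normalization, where XM_001054169 had an adjusted p of 0.0546, and 20 to 39 without single replicates. Of 940 values of named genes, 795 kept their side of the threshold, 100 lost and 45 gained a call. The causes were not tested.

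Groups share replicate numbers. No label says that these numbers pair rats, so the main fit had no replicate block. Deviations of same-numbered HR and LR arrays correlated at 0.48, 0.40, 0.07, 0.09 and 0.43. Every HR and LR array but LR replicate 4 correlated best with its own number in the other line. Arrays that share a number may therefore not be independent, and what the numbers mark is not known. With the replicate block 53 transcripts were called, 19 higher and 34 lower and all 13 among them, 8 list genes, and 58 transcripts in HR against LR-LR. Named genes called with the block and not without it were Cadm4 (limma, adjusted p = 0.00444), Srebf2 (0.00824), Dgkz (0.018), Aldh3b1 (0.0194), Olfm1 (0.0244), Kcnk1 (0.0247), Dcaf8 (0.03), Ncdn (0.0329), Htr1b and Tead3 (0.0347 each) and Maob (0.0475).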
